A study of Danio rerio with 6 samples.

Results

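The Hairy/Enhancer of split (Hes), Hey and Nrarp genes are genes commonly read as a measure of Notch activity, and they are described here in the regenerating zebrafish heart together with efnb2a, a Notch-responsive gene of arterial endothelium. The members were the 10 symbols her6, her9, her15.1, her4.2, hey1, hey2, heyl, nrarpa, nrarpb and efnb2a, chosen by name in the authors' deposited comparison table and joined by identifier to the deposited FPKM table (fragments per gene, corrected for gene length and sequencing depth). Each of the 10 symbols was found. Because 2 identifiers carry the symbol her4.2, they made up 11 identifiers, present in both tables, of 32105 identifiers in the FPKM table and 33737 in the comparison table.

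RNA was sequenced from hearts of adult zebrafish (Danio rerio) of the TU-AB strain, aged 6 to 12 months. The wild-type group (WT) has 3 samples. The DN-MAML group has 3 as well, its fish bearing the transgene Tg(hsp70l:DN-MAML), a dominant-negative form of the Notch co-activator Mastermind under the heat shock promoter hsp70l. Fish of both groups were kept at 4 per liter, had the heart amputated, were heat shocked for 1 h at 38 C each day and gave their hearts 5 days after amputation, so that the heat shock was shared by the controls. The promoter acts in any cell that responds to heat, neither table lists the transgene as a gene, and the labels do not say whether a sample is 1 heart or a pool. The question stated for the comparison is which genes lie downstream of Notch in cardiomyocyte proliferation during regeneration.

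Notch is a receptor that is cut when it meets a Delta or Jagged ligand on a neighbouring cell. Its freed intracellular domain enters the nucleus and joins the DNA-binding protein RBPJ and Mastermind to switch on target genes, the Hes and Hey genes first among them. Those encode basic helix-loop-helix repressors that recruit Groucho/Tle corepressors, while Nrarp proteins bind the Notch intracellular domain and restrain it. In the injured zebrafish heart, Notch receptors are known to be active in the endocardium, the inner lining of the heart, and in the epicardium.

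The FPKM added up to between 852778 and 914709 per sample. No depth is known, so the counting precision of a low FPKM in a single sample cannot be given. The authors' deposited table gives mean counts over the samples, printed below for hey1, heyl, her15.1 and her4.2. Between 22.4% and 31.0% of a sample's FPKM came from mitochondrially encoded genes. WT replicate 1 stood apart from the other WT samples. Over the 16556 genes averaging 0.5 FPKM or more, its log2(FPKM + 0.5) correlated at 0.9747 and 0.9771 with WT replicates 2 and 3, at 0.9784 with DN-MAML replicate 2 and at 0.9761 with DN-MAML replicate 1. Its correlation with DN-MAML replicate 3 was lower than these, at 0.9708. WT replicates 2 and 3 correlated at 0.984 with each other. WT replicate 3 stood apart in hsp70l, whose promoter drives the transgene. Its FPKM was 73.78 there, against 4.77 and 8.10 in WT replicates 1 and 2. The DN-MAML replicates read 6.84, 2.72 and 6.23, with no call by limma (adjusted p = 0.605).

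Of the 11 identifiers, her6 fell in DN-MAML hearts to 50.7% of its WT level, and it was the only member to pass the test in limma. The low-level hey1 also fell by the authors' deposited table. The Hes gene her9, as high as her6 in WT hearts, did not differ beyond a wide spread between samples. The paralogs nrarpa and nrarpb lay on opposite sides of 0, and neither passed a threshold. In WT hearts the highest members were her6 at 37.2 ± 1.75 FPKM and her9 at 35.6 ± 8.41 (SD, n = 3), which did not differ beyond their spread. Next came nrarpa at 17.0 ± 2.198, efnb2a at 15.9 ± 6.86 and hey2 at 8.67 ± 3.98. Across samples nrarpa and efnb2a overlapped, and so did efnb2a and hey2. Within each WT sample, however, efnb2a was above hey2 (23.8 against 13.3, 11.4 against 6.09 and 12.5 against 6.67 FPKM). The order of nrarpa and efnb2a changed between WT samples. Below them nrarpb at 2.58 ± 0.161 and her15.1 at 2.16 ± 2.38 were within their spread of each other. The remaining 4 identifiers (hey1, heyl and both her4.2) stayed at or under 0.69 FPKM in every sample, had a mean under the minimum of 0.5, and were not tested in limma.

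**Figure D1:**
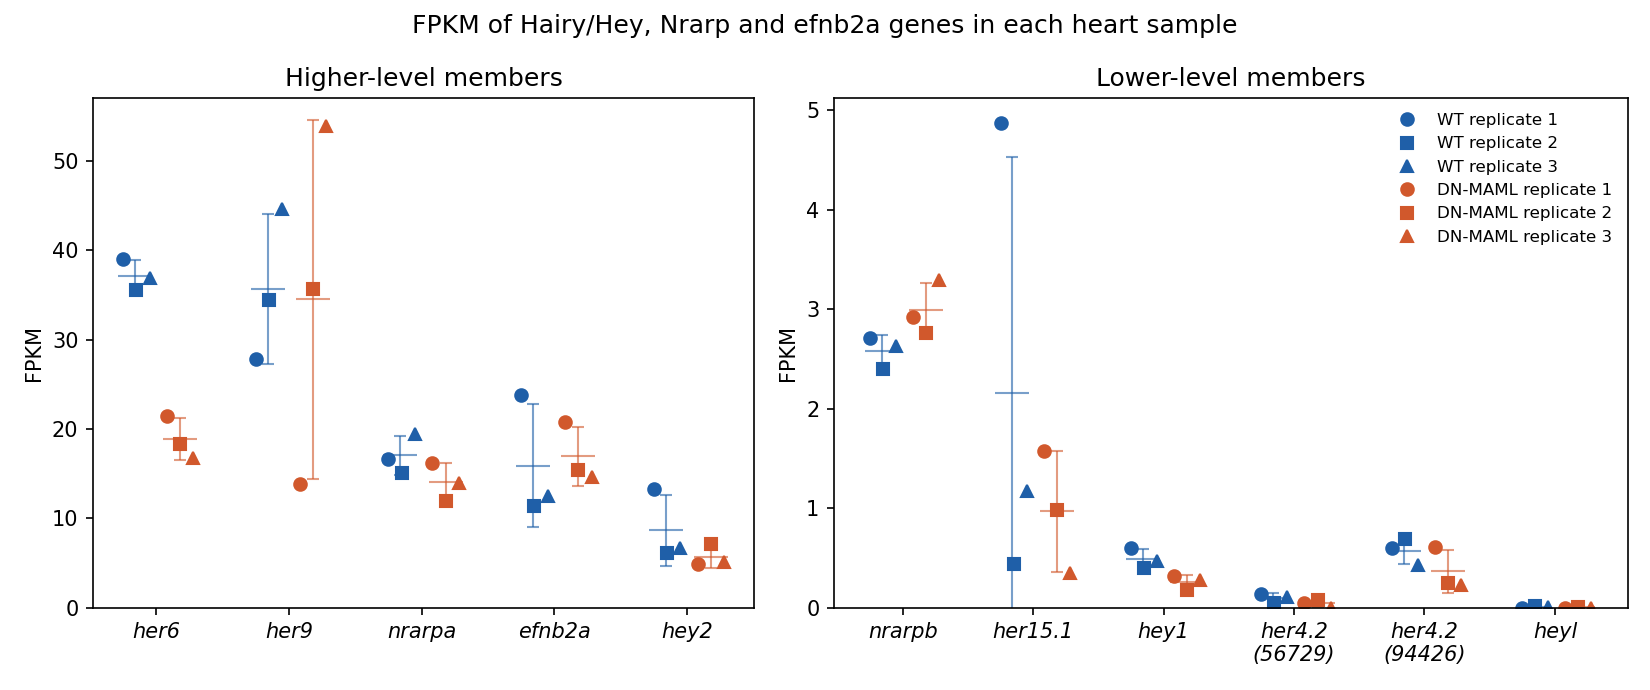
FPKM of the 11 member identifiers in each sample, with members of higher level in the left panel and of lower level in the right panel, each on its own axis from 0. Each point is 1 sample (blue WT, orange DN-MAML, the shape giving the replicate), and the bars are the group mean ± SD with n = 3; the lower end of the WT bar of her15.1 lies below 0 and is not drawn. The 3 DN-MAML points of her6 (16.8 to 21.4 FPKM) lie below all 3 WT points (35.5 to 39.0), while those of her9 spread from 13.9 to 53.9.

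Expression of her6 (ENSDARG00000006514), the zebrafish counterpart of mammalian HES1 and a repressor that Notch induces in many tissues, was 39.0, 35.5 and 36.9 FPKM in the WT replicates. In the DN-MAML replicates it was 21.4, 18.3 and 16.8 FPKM, so that the groups did not overlap and the gap between them exceeded the range within either. It fell by 0.97 on the log2(FPKM + 0.5) scale (SE 0.11, 95% interval -1.23 to -0.71), from 37.2 ± 1.75 to 18.8 ± 2.37 FPKM (SD, n = 3), and passed the threshold of 0.05 in limma (adjusted p = 0.0377). Of the 16556 genes tested, 7 passed that threshold on the lower side (0.0423%), and her6 had the 13th smallest p of all. In the authors' deposited table its log2 fold change was -0.98 (SE 0.13), with an adjusted p of 1.13e-10, the 15th smallest p there. The limma call was close to the threshold. It was lost in 9 of 17 alternatives, among them the fits without WT replicate 2 (adjusted p = 0.106), WT replicate 3 (0.141), DN-MAML replicate 2 (0.0991) and DN-MAML replicate 3 (0.142), while the log2 difference stayed between -1.06 and -0.89 whichever sample was left out. Without WT replicate 1 it was -0.93, with an adjusted p of 0.0247.

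Expression of her9 (ENSDARG00000056438), a Hes repressor that the gene name table calls HES4, was 27.9, 34.5 and 44.6 FPKM in the WT replicates. In the DN-MAML replicates it was 13.9, 35.7 and 53.9 FPKM, and these included both the lowest and the highest of the 6 values. The means of 35.6 ± 8.41 and 34.5 ± 20.0 FPKM (SD, n = 3) gave a log2 difference of -0.22 (SE 0.51, 95% interval -1.51 to 1.07), which did not pass the test in limma (adjusted p = 0.887). The difference was 0.32 without DN-MAML replicate 1, -0.38 without WT replicate 1 and -0.05 without WT replicate 3. The authors' deposited table gave -0.07 (SE 0.45) with an adjusted p of 0.967. Across the 6 samples the level of her9 did not follow that of her6, at a Pearson r of -0.03, given as a description over samples of both groups. Set against each other within a sample, her6 was 1.40, 1.03 and 0.829 times her9 in the WT replicates and 1.55, 0.513 and 0.312 times in the DN-MAML replicates. The mean log2 ratio was 0.09 ± 0.38 in WT and -0.67 ± 1.18 in DN-MAML, with p = 0.4 in an exact two-sided permutation test (n = 3 in each group). The difference of -0.76 ran from -1.41 without DN-MAML replicate 1 to -0.25 without DN-MAML replicate 3.

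Expression of her15.1 (ENSDARG00000054562), a member of the Hes5-like Hes genes of zebrafish, was 4.87 FPKM in WT replicate 1, against 0.44 and 1.17 in WT replicates 2 and 3. It was 1.57, 0.98 and 0.35 FPKM in the DN-MAML replicates, within the WT range but for the lowest value. The log2 difference of -0.56 (SE 0.70, 95% interval -2.29 to 1.16) did not pass in limma (adjusted p = 0.762), and without WT replicate 1 it was 0.13. In the authors' deposited table it was -0.69 (SE 0.52, adjusted p = 0.543), at a mean count of 37.0. In RefSeq's GRCz12tu assembly her15.1 lies between her2 and her15.2. A second identifier, ENSDARG00000054560, which the gene name table calls her15.2, read 1.45, 0.35 and 0.10 FPKM in WT and 1.09, 0.26 and 0.48 in DN-MAML. Reads of such near copies may have been shared out between them, so the level of either is uncertain.

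The symbol her4.2, another Hes5-like gene that is known in the zebrafish nervous system as a Notch target, stood at 2 identifiers. The first (ENSDARG00000056729, which the gene name table calls her4.5) read 0.14, 0.05 and 0.11 FPKM in WT and 0.05, 0.08 and 0 in DN-MAML. The second (ENSDARG00000094426) read 0.60, 0.69 and 0.43 FPKM in WT and 0.61, 0.25 and 0.23 in DN-MAML. The groups overlapped at either identifier. The authors' deposited table gave mean counts of 2.28 and 9.27, log2 fold changes of -0.53 and -0.09, and no adjusted p. The her4 genes lie side by side in the GRCz12tu assembly (her12, her4.2, her4.1, her4.3 and her4.4 in that order). Reads may have been shared among them too, which was likewise not tested, so their levels are uncertain.

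Among the Hey genes, hey1 (ENSDARG00000070538), a Notch-induced repressor of endocardium and endothelium, was low in every sample. It read 0.60, 0.40 and 0.47 FPKM in WT and 0.32, 0.18 and 0.28 in DN-MAML, so that the groups did not overlap and the DN-MAML mean was 53.1% of the WT mean. Its group means were 0.490 ± 0.101 and 0.26 ± 0.0721 FPKM (SD, n = 3). In the authors' deposited table hey1 fell by 0.93 on the log2 scale (SE 0.29, adjusted p = 0.0326), at a mean count of 67.5. That table has an adjusted p for 8 of the 11 identifiers, and her6 and hey1 were the 2 of them past its threshold on the lower side, where 413 of 18217 genes (2.27%) were called. None of the 8 was called on the higher side, where 2.11% of the genes were. On the log2(FPKM + 0.5) scale the difference of hey1 was -0.38, a scale that shrinks changes of low genes, and with a pseudocount of 0.1 it was -0.72. When every gene above 0 FPKM in any sample was kept in limma, hey1 had a p of 0.0280 and an adjusted p of 0.374.

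Expression of hey2 (ENSDARG00000013441), the gridlock gene of the zebrafish aorta, was 13.3 FPKM in WT replicate 1 and 6.09 and 6.67 in WT replicates 2 and 3. In the DN-MAML replicates it was 4.88, 7.14 and 5.07 FPKM, so the groups overlapped. The means of 8.67 ± 3.98 and 5.70 ± 1.25 FPKM (SD, n = 3) gave a log2 difference of -0.50 (SE 0.30, 95% interval -1.23 to 0.22), with no call in limma (adjusted p = 0.515). Without WT replicate 1, the sample that stood apart, the difference was -0.17. The authors' deposited table gave -0.58 (SE 0.28), with a p of 0.0353 and an adjusted p of 0.245. The ratio of hey2 to hey1 was 22.1, 15.225 and 14.2 in WT and 15.25, 39.7 and 18.1 in DN-MAML, with p = 0.5 in an exact two-sided permutation test (n = 3 in each group).

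The remaining Hey gene, heyl (ENSDARG00000055798), read between 0 and 0.02 FPKM in the 6 samples. Its mean count in the authors' deposited table was 0.887, with a log2 fold change of 0.10 (SE 0.45) and no adjusted p. A difference in heyl was therefore not detectable in these samples.

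Added together, the 8 Hes and Hey identifiers came to 86.4, 77.7 and 90.4 FPKM in the WT replicates and 42.7, 62.6 and 76.6 in the DN-MAML replicates. The summed groups did not overlap, but only narrowly (77.7 against 76.6), and the sum was not tested. Most of it was her6 and her9, which made up 77.5% to 90.2% of the sum in WT and 82.6% to 92.3% in DN-MAML. The groups of her6 did not overlap and those of her9 did, so the gap in the sum does not show a fall across the Hes and Hey genes. The share of her6 was 45.2%, 45.7% and 40.9% in WT. In DN-MAML it was 50.2%, 29.2% and 21.9%, while that of her9 was 32.5%, 57.0% and 70.3%. DN-MAML replicate 1, with the lowest sum, thus had the highest share of her6, and DN-MAML replicates 2 and 3 the highest shares of her9.

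**Figure D2:**
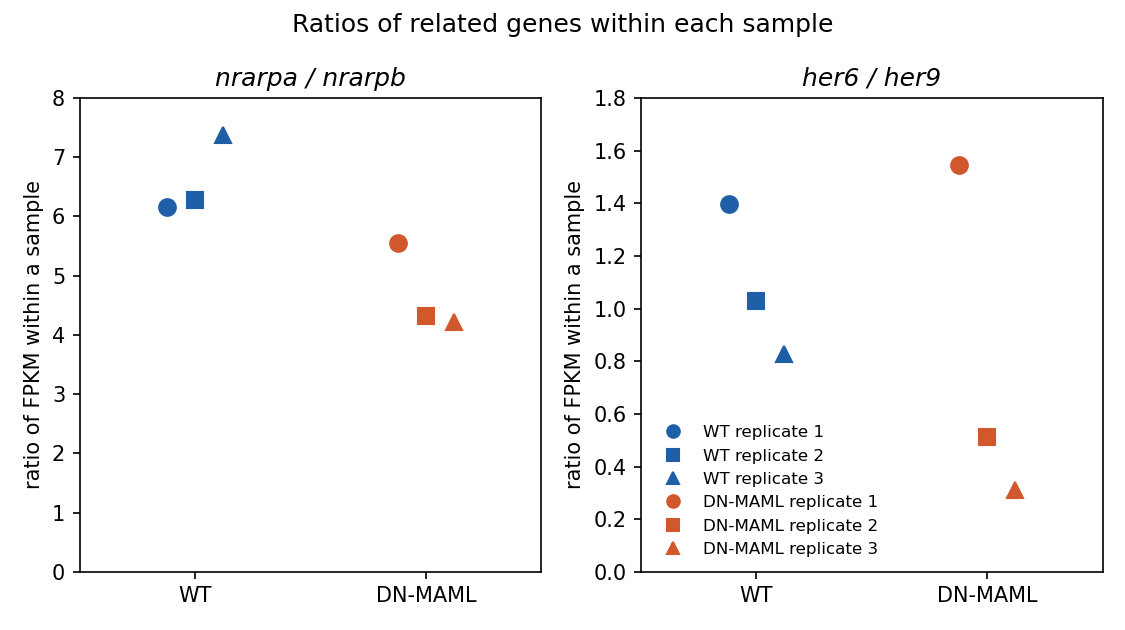
Ratio of FPKM within each sample for nrarpa over nrarpb (left) and her6 over her9 (right), each on a linear axis from 0. Each point is 1 sample, blue for WT and orange for DN-MAML, the shape giving the replicate. All 3 DN-MAML ratios of nrarpa to nrarpb (4.22 to 5.54) lie below the WT ratios (6.15 to 7.38), while those of her6 to her9 (0.312 to 1.55) span the WT range.

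The Nrarp genes encode small ankyrin-repeat proteins that bind the Notch intracellular domain and limit its activity, a feedback of the pathway on itself. Zebrafish Nrarp is also known to act on the stability of the Wnt transcription factor Lef1. Expression of nrarpa (ENSDARG00000091419) was 16.7, 15.05 and 19.4 FPKM in WT and 16.2, 11.9 and 13.9 in DN-MAML, with DN-MAML replicate 1 inside the WT range. The means of 17.0 ± 2.198 and 14.0 ± 2.13 FPKM (SD, n = 3) gave a log2 difference of -0.28 (SE 0.14, 95% interval -0.60 to 0.05), with no call in limma (adjusted p = 0.438). Without WT replicate 3 it was -0.18. The authors' deposited table gave -0.32 (SE 0.14), with a p of 0.0260 and an adjusted p of 0.213.

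Its paralog nrarpb (ENSDARG00000018958) was 2.71, 2.40 and 2.63 FPKM in WT and 2.92, 2.76 and 3.29 in DN-MAML, so that all 3 DN-MAML values lay above the WT values. The log2 difference of 0.18 (SE 0.12, 95% interval -0.10 to 0.46) did not pass in limma (adjusted p = 0.550). The authors' deposited table gave 0.27 (SE 0.13), with a p of 0.0358 and an adjusted p of 0.247. The ratio of nrarpa to nrarpb was 6.15, 6.27 and 7.38 in WT and 5.54, 4.33 and 4.22 in DN-MAML, without overlap. The mean log2 ratio was 2.72 ± 0.144 in WT and 2.22 ± 0.217 in DN-MAML, a difference of -0.50 that stayed between -0.62 and -0.41 whichever sample was left out. An exact two-sided permutation test gave p = 0.1, the smallest that 3 against 3 samples allow, and the ratio was chosen after the values had been seen.

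Expression of efnb2a (ENSDARG00000020164), which encodes ephrin-B2, the membrane ligand of Eph receptors that marks arterial endothelium, was 23.8 FPKM in WT replicate 1 and 11.4 and 12.5 in WT replicates 2 and 3. It was 20.8, 15.4 and 14.7 FPKM in the DN-MAML replicates, between the lowest and highest WT values. The means of 15.9 ± 6.86 and 16.9 ± 3.33 FPKM (SD, n = 3) gave a log2 difference of 0.15 (SE 0.29, 95% interval -0.55 to 0.85), with no call in limma (adjusted p = 0.857). Without WT replicate 1 it was 0.47, and without WT replicate 3 it was 0.02. The authors' deposited table gave 0.07 (SE 0.23, adjusted p = 0.935). WT replicate 1 was the highest of the 6 samples in efnb2a, hey2 and her15.1. It was also the highest in her6 (39.0 FPKM), hey1 (0.60) and the her4.2 identifier ENSDARG00000056729 (0.14). In her9, nrarpa, nrarpb, heyl and the other her4.2 identifier another sample was highest. The other ephrin-B2 gene, efnb2b, was 26.6 FPKM in WT replicate 1, just above 26.2 in DN-MAML replicate 3.

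**Figure D3:**
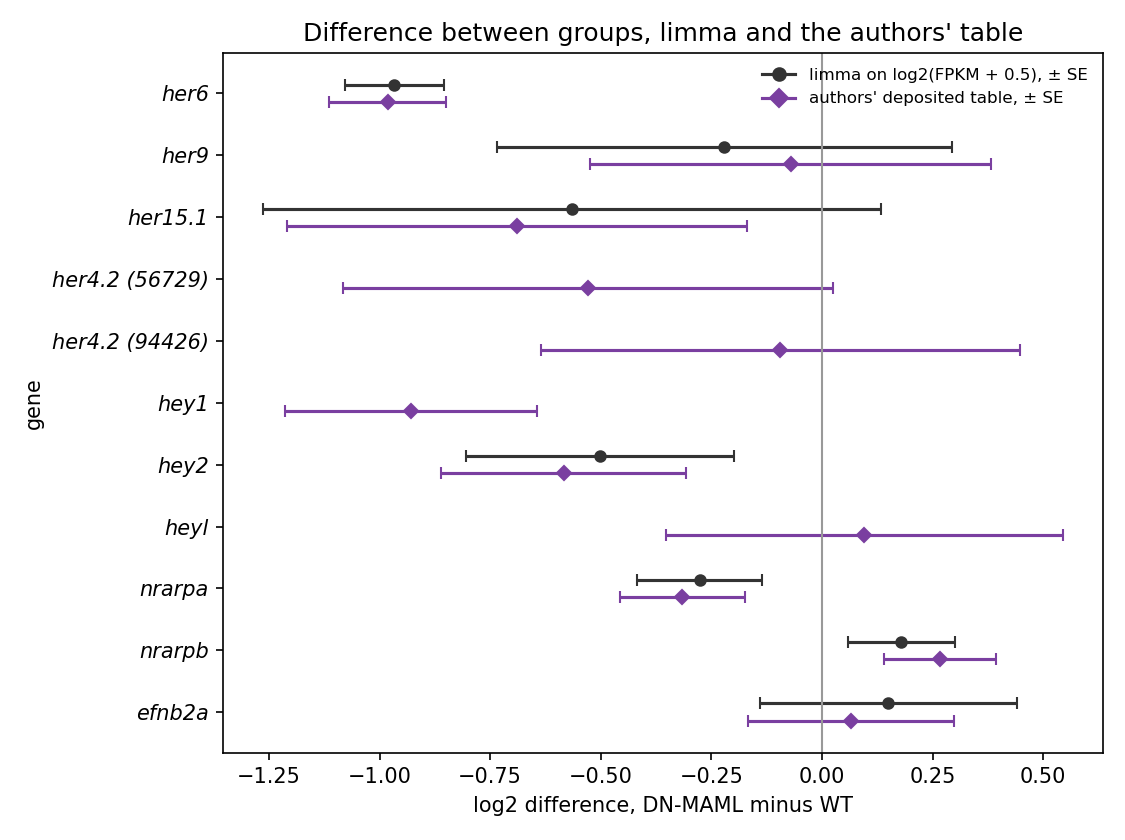
Log2 difference of each member, DN-MAML minus WT, from limma on log2(FPKM + 0.5) (black circles) and from the authors' deposited table (purple diamonds), with bars of ± 1 SE; the 4 identifiers without a circle were under the minimum FPKM. The bars of her6 (-0.97 and -0.98) and, in the authors' table, hey1 (-0.93) lie far to the left of 0. Those of hey2 (-0.50 and -0.58), nrarpa (-0.28 and -0.32) and, in the authors' table, her15.1 (-0.69) also lie to its left. Those of nrarpb (0.18 and 0.27) lie to its right. A bar of 1 SE clear of 0 is not a call, and only her6 and, in the authors' table, hey1 were called.

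As a group, 5 of the 7 tested members lay below 0 and 2 above it, with a median log2 difference of -0.28. Over all 16556 genes tested, 44.9% lay on the lower side and the median was 0.03. The groups did not overlap for her6, which was lower, and nrarpb, which was higher, against 8.98% and 9.83% of all genes tested. By the authors' deposited table, 8 of the 11 identifiers had a log2 fold change below 0 and 3 above it, with a median of -0.32 against 0.00 over all its genes. The sides of heyl and both her4.2 identifiers are uncertain, at mean counts of 0.887, 2.28 and 9.27. The share of all genes below 0 was not computed for that table. At an unadjusted p under 0.05 that table held 5 of the 11 (her6, hey1, hey2 and nrarpa lower, nrarpb higher), where 11.9% of its genes did. In limma only her6 of the 7 had an unadjusted p under 0.05, against 13.2% of the genes tested.

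**Figure D4:**
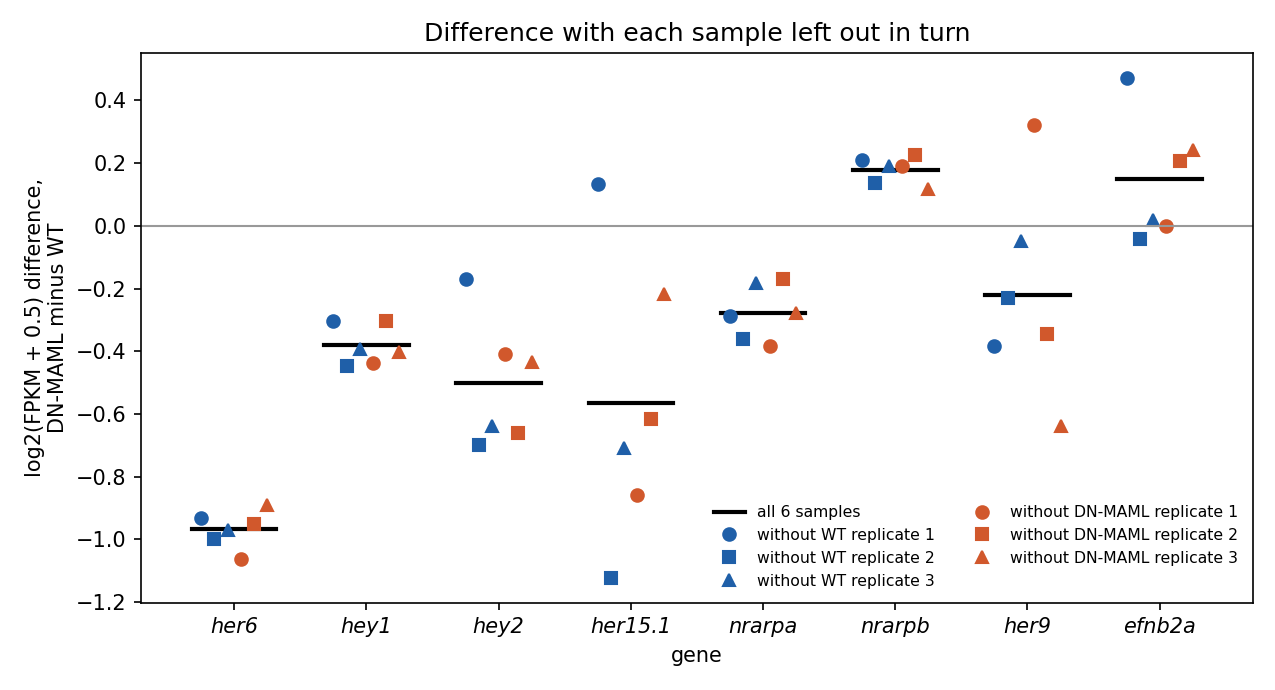
Difference in mean log2(FPKM + 0.5), DN-MAML minus WT, for 8 members with all 6 samples (black line) and with each sample left out in turn (points; colour and shape give the sample left out). The values of her6 stay between -1.06 and -0.89, and those of her9, her15.1 and efnb2a fall on both sides of 0.

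Leaving out each sample showed how far a member rested on 1 library. The difference stayed below 0 for her6, hey1 (-0.45 to -0.30), hey2 (-0.70 to -0.17) and nrarpa (-0.38 to -0.17), and above 0 for nrarpb (0.12 to 0.23). For her6, hey1 and nrarpb the groups did not overlap, so their sign could not change and only the size of the difference is informative. The difference took both signs for her9 (-0.64 to 0.32), her15.1 (-1.12 to 0.13) and efnb2a (-0.04 to 0.47).

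In whole hearts, fewer cells of a type and less RNA per cell cannot be told apart, so markers of the cell types were set beside the members. Markers of each type listed were found, but not every listed symbol was. The arterial list had 5 of its 9 symbols, and the venous and lymphatic list 5 of 7. Some markers found were low, among them lyve1b (0.08 to 0.35 FPKM) and stab2 (0.42 to 0.61 FPKM). The endothelial and endocardial list (18 genes) summed to between 356 and 414 FPKM in WT and between 402 and 470 in DN-MAML. Of its 18 genes, 12 lay on the higher side and none was called. Relative to the mean log2 level of that list in the same sample, her6 was 1.12, 1.24 and 1.06 in WT and 0.26, 0.13 and -0.23 in DN-MAML, a difference of -1.09 on the log2 scale. On the same relative scale nrarpa was -0.08, 0.03 and 0.15 in WT and -0.14, -0.46 and -0.50 in DN-MAML, a difference of -0.40 without overlap. In FPKM the groups of nrarpa overlapped, and the list mean itself was 0.12 higher in DN-MAML (exact permutation p = 0.4). The list holds aplnrb, which is also among the other Notch-responsive genes listed below. The relative difference of hey1 was -0.50, also without overlap. So was that of 1 her4.2 identifier (ENSDARG00000056729), at -0.27, though it read only 0 to 0.14 FPKM and its groups overlapped in FPKM. At such levels the added 0.5 makes up most of the value, so the relative value largely follows the list mean. For heyl, at 0 to 0.02 FPKM, the relative difference was -0.14. The share of all genes without overlap was not computed on this relative scale. Before that scaling, 8.98% of the genes tested were lower without overlap. An exact two-sided permutation test gave p = 0.1, the smallest possible, for each of her6, nrarpa, hey1 and that her4.2 identifier (n = 3 in each group). For her6 the gap between the groups was already wider than the range of the list mean (3.93 to 4.35 on the log2 scale). Its p therefore could not have been larger, and only the size of its relative difference is informative. The groups overlapped for the other members above the minimum FPKM. Their relative differences were 0.05 for nrarpb, -0.63 for hey2, -0.69 for her15.1, -0.34 for her9 and 0.03 for efnb2a, with exact permutation p of 0.4, 0.3, 0.5, 0.7 and 0.9. Without WT replicate 1 those of hey2 and her15.1 were -0.34 and -0.03.

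Arterial markers (5 genes) summed to 47.3 to 62.0 FPKM in WT and 50.7 to 66.3 in DN-MAML, overlapping as efnb2a did. That sum was made mostly of tbx20 and efnb2b, so it says little about the other arterial genes. The summed level of 3 other lists did not overlap between the groups. Mural cell markers (6 genes) summed to 365 to 461 FPKM in WT and 234 to 286 in DN-MAML, a sum made mostly of acta2 and tagln. Of the 6 genes, 4 were lower and 2, rgs5a and myh11a, higher. Smooth muscle actin, acta2, fell in the authors' deposited table (log2 fold change -1.31, adjusted p = 2.68e-07) but did not pass in limma (adjusted p = 0.121). Venous and lymphatic markers (5 genes) summed to 60.5 to 61.9 FPKM and 50.3 to 55.0, a sum carried mostly by prox1a and ephb4a. Of the 4 tested, those 2 were lower and nr2f2 and stab2 were higher. Erythroid markers (8 identifiers) were all on the lower side in limma and summed to 18442 to 32698 FPKM in WT and 11353 to 17254 in DN-MAML. Of their globin genes, ba1, ba1l and 1 of the 2 identifiers of hbaa1 fell in the authors' deposited table, with log2 fold changes of -1.12, -1.05 and -1.11 (adjusted p = 5.33e-05, 0.000251 and 0.000161). None of these globin genes passed in limma (adjusted p = 0.294, 0.163 and 0.193). All 9 leukocyte markers were on the higher side, at 437 to 608 FPKM and 597 to 770. Cardiomyocyte markers (11 genes) had overlapping sums of 45344 to 54321 and 39183 to 48210 FPKM, with 10 of the 11 on the lower side in limma. Their ventricular myosin gene vmhc was 295, 316 and 346 FPKM in WT and 175, 179 and 241 in DN-MAML. It fell in the authors' deposited table (-0.71, adjusted p = 0.000389) but did not pass in limma (adjusted p = 0.144). The epicardial and fibroblast list (8 genes) overlapped at 653 to 1195 and 846 to 1135 FPKM. The part of these shifts in the difference of her6 or hey1 was not tested. With the mitochondrially encoded and erythroid genes taken out of the scaling, the log2 difference of her6 was -0.93 (limma, adjusted p = 0.0471).

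The other genes of the pathway were read from fixed lists, and limma called none of those tested. The lists were found only in part. Of the receptors and ligands 15 of 17 symbols were found, without notch1a. For the machinery it was 21 of 30, and for other Notch-responsive genes 19 of 26. Notch receptors and ligands (9 tested) were split, 4 on the lower and 5 on the higher side, with a median log2 difference of 0.06. The main receptor by level among those found, notch1b, read 30.7, 24.7 and 29.3 FPKM in WT and 24.9, 23.6 and 32.2 in DN-MAML. The endothelial ligand dll4, itself raised by Notch, was 14.3, 12.7 and 14.5 FPKM in WT and 9.47, 10.02 and 11.9 in DN-MAML. It fell in the authors' deposited table (log2 fold change -0.42, adjusted p = 0.0260) but did not pass in limma (-0.39, adjusted p = 0.251). The ligand dld was 0.71, 0.34 and 0.19 FPKM in WT and 1.74, 0.73 and 1.01 in DN-MAML, and it rose in the authors' deposited table (log2 fold change 1.30, adjusted p = 0.0240). The transcriptional and processing machinery (20 tested) had 5 genes lower and 15 higher, with a median of 0.10. Of it, adam17b, a protease of the family that cuts cell-surface proteins, was 12.5, 11.5 and 13.0 FPKM in WT and 9.42, 9.90 and 10.5 in DN-MAML, and it fell in the authors' deposited table (-0.37, adjusted p = 0.0189).

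Other Notch-responsive genes (17 tested) had 10 on the lower and 7 on the higher side, with a median of -0.18, and dll4 was the only 1 called in the authors' deposited table. Among them lfng, a glycosyltransferase that modifies Notch, was 32.7, 59.7 and 58.5 FPKM in WT and 25.1, 45.6 and 59.5 in DN-MAML, lowest in replicate 1 of either group as her9 was. It was chosen after its values were seen. Further Hes-related and Id genes (8 tested of 25 identifiers) had 2 on the lower and 6 on the higher side, with a median of 0.30. The only Hes genes tested among them were hes6 (log2 difference -0.13) and her15.2 (0.08), neither of them called. The others tested were Id genes, bhlhe40 and bhlhe41, so the median says little about Hes genes. The sum of the list was 222 to 307 FPKM in WT and 318 to 382 in DN-MAML. Most of it was Id genes and bhlhe40, which are related to the Hes genes in structure but not known mainly as Notch targets. Of these, id2b, which encodes an inhibitor of basic helix-loop-helix factors, was 98.5, 76.2 and 67.2 FPKM in WT and 143, 106 and 117 in DN-MAML. It rose in the authors' deposited table (0.55, adjusted p = 0.0313) and did not pass in limma (0.60, adjusted p = 0.232). WT replicate 1 had the highest WT value.

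The Groucho/Tle and Tcf/Lef genes (8 tested), whose products act with Hes repressors or with Wnt, had 2 on the lower and 6 on the higher side, a median of 0.06 and no call in either source. Ephrins and Eph receptors other than efnb2a (18 tested) had 9 on each side and a median of -0.00. The ligand gene efna1a was 7.93, 5.21 and 5.40 FPKM in WT and 10.6, 9.05 and 9.87 in DN-MAML. It rose in the authors' deposited table (0.64, adjusted p = 0.00490) but did not pass in limma (adjusted p = 0.196).

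The genes whose level followed a called member most closely were read by Pearson correlation of log2(FPKM + 0.5) over the 6 samples, as a description in which the group difference itself takes part. For her6 they were usp28 (r = 0.991), cox10 (0.989) and cars2 (0.988), and 101 of 16555 other genes reached 0.95. For example, usp28 read 175, 164 and 174 FPKM in WT and 127, 123 and 121 in DN-MAML. For hey1 they were rnf121 (0.994), ube2na (0.994) and CU856539.1 (0.990), and 63 of 16556 reached 0.95. Among the members themselves, her6 ran with hey1 at 0.89, nrarpa at 0.73, hey2 at 0.58 and her15.1 at 0.46. It ran at -0.03 with her9, -0.05 with efnb2a and -0.77 with nrarpb.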

How the data were processed

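RNA from 3 WT and 3 DN-MAML heart samples was analysed from the deposited tables. The submitters' processing notes name the tools FastQC, cutadapt, STAR, featureCounts and DESeq2 without versions. Which genome build, annotation and FPKM tool the authors used is not given in the sources used here. FPKM were deposited for 32105 genes, rounded to 0.01. A comparison table was also deposited. Its columns are named, per the file headers, as DESeq2 names them: a mean normalized count (a signal averaged over samples), a log2 fold change with its standard error, a score (the fold change over its error), a p-value and an adjusted p-value.

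FPKM were tested as log2(FPKM + 0.5) with limma 3.58.1 (R 4.3.3). The variance was trended and robust, no block was used, genes under a mean of 0.5 FPKM were left out (16556 remained), and Benjamini-Hochberg adjustment ran over those genes at a threshold of 0.05. On this scale changes of low genes are understated. Counts per sample were not used, so the depth is unknown and counting intervals are left out. The limma steps were run on simulated data with independent normal noise, no filter on level and no outlying sample. That run therefore does not cover a sample that stands apart, such as WT replicate 1. Ratios and levels relative to endothelial genes were compared by exact two-sided permutation tests in scipy 1.17.1 (Python 3.11.15). The labels do not say whether samples are separate animals, so the spread behind the p-values is that between these samples and may be technical.

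The members, gene lists and tests were chosen with earlier results of these data known. All members are named. From each other list, up to 4 genes past either source's threshold are named, and for each called member the 3 most correlated genes. Some list genes past neither threshold are named as well, to describe a list, its sum or a level, and these were picked without a fixed rule. Alternatives changed the pseudocount, filter, scaling, variance estimate, block and samples.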

Additional observations from a re-analysis of the deposited data

How the results depend on the processing

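The count of 16 genes past limma's threshold (7 lower, 9 higher; 2189 at an unadjusted p under 0.05, and 797 past the threshold of the authors' deposited table) was 9 with a minimum mean of 2 FPKM, 10 with quantile normalization and 28 with FPKM rescaled to the same sum. It was 0 with a replicate block, while leaving out a sample gave 4 (without WT replicate 3 or DN-MAML replicate 2) to 180 (without WT replicate 1), with 6 without DN-MAML replicate 3. The call of her6 was lost with no filter (log2 difference -0.97, adjusted p = 0.0859), quantile normalization (-0.95, 0.0515), no robust estimate (-0.97, 0.0521), no trend (-0.97, 0.0751) and the replicate block (-0.97, 0.111). Leaving out a sample gave -1.06 to -0.89. The call of her6 passed in 8 of 17 alternatives, and its direction was the same in all 17. The lack of overlap between the groups of her6 fixed that direction in the fits with a sample left out or another pseudocount. The filter, variance and block settings leave the difference itself unchanged, at -0.97. The direction was therefore open only in the fits with another scaling. Same-numbered samples correlated at 0.21, -0.03 and 0.14 in their deviations from the group means. Whether the numbers pair the samples is thus not settled, and the labels state no block. WT and DN-MAML replicates 1, and likewise 3, correlated best with each other, and the replicates 2 did not.

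With a sample left out, the difference ran from -0.64 to 0.32 for her9 (0.32 without DN-MAML replicate 1), from -1.12 to 0.13 for her15.1 (0.13 without WT replicate 1) and from -0.042 to 0.47 for efnb2a (-0.042 and -0.00 without WT replicate 2 and DN-MAML replicate 1). Relative to endothelial genes it ran from -0.70 to 0.19 for her9 and from -0.14 to 0.30 for efnb2a (-0.09, -0.14 and -0.13 without WT replicate 2, WT replicate 3 and DN-MAML replicate 1). The log2 difference of the ratio of her6 to her9 ran from -1.41 to -0.25. That of hey2 to hey1 ran from -0.019 (without DN-MAML replicate 2) to 0.67. The ratios were chosen after the data had been seen. The causes of these changes were not tested. The median over all genes moved by less than 0.1 under every scaling tried. Depth is unknown, which limits heyl, her4.2 and hey1 most.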
